A study of Mus musculus with 18 samples.

Results

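Hindlimb buds of stage E11.5 (embryonic day) were compared between Pitx1 knockout and wild-type mouse embryos. All 3 knockout and all 3 wild-type libraries of that stage were taken, 6 of the 18 libraries in the series, and every gene of the deposited table was considered. Both groups were strain C57BL/6 and both held hindlimb tissue, so they differ by genotype alone in the labels, which give the genotypes as wild type and Pitx1 KO. Messenger RNA was sequenced with a stranded library kit. The labels do not give the deleted part of Pitx1, the sex, or how many embryos went into a library, so the p-values reflect library-to-library spread, part of which may be technical. The 6 libraries of the same genotypes at E12.5 served for comparison. Of 23929 genes listed, 14601 had enough fragments to be tested.

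PITX1 is a homeodomain transcription factor made in the hindlimb and not the forelimb, and limbs that lack it are smaller and take on some features of a forelimb. Tbx4, a T-box gene, lies downstream of it and drives limb outgrowth. At this stage the limb bud is a growing mesenchyme under an ectodermal jacket, in which SOX9-positive cells condense into the first cartilage. Muscle precursors have migrated in from the somites and begin to differentiate.

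Expression levels below are RPKM, fragments scaled by transcript length and library size, in replicates 1, 2 and 3 of each genotype. Fold changes are log2 values of knockout over wild type with a standard error (SE), from edgeR's quasi-likelihood test on the fragment counts. A gene is said to have risen or fallen where its Benjamini-Hochberg adjusted p over all tested genes was under 0.05.

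The knockout libraries were deeper than the wild-type libraries, at 44986881 to 60672151 fragments against 38770845 to 40973174, so depth moved with genotype and its part in the results was not tested. On the first principal component, which held 44.6% of the variance, the genotypes separated but wild-type replicate 3 and knockout replicate 1 lay close together, at -5.77 and 6.88, between wild-type replicates 1 and 2 at -28.7 and -42.1 and knockout replicates 2 and 3 at 33.7 and 36.0. Red blood cell RNA did not follow genotype. Its 15 listed markers summed to 26494 RPKM in wild-type replicate 3 and 21486 RPKM in knockout replicate 2, and to 11055 to 15640 RPKM in the other 4 libraries. The hindlimb label was borne out by the RNA, since the hindlimb gene Tbx4 was at 69.2, 58.4 and 63.02 RPKM in the wild type whereas Tbx5, its forelimb counterpart, was at 0.492, 1.33 and 0.8696 RPKM.

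Pitx1 RNA itself was at 138, 112 and 109 RPKM in the 3 wild-type libraries and at 23.2, 17.3 and 20.01 RPKM in the 3 knockout libraries. The genotypes did not overlap, and the knockout mean was 16.8% of the wild-type mean. The log2 fold change was -2.57 ± 0.13 (SE, adjusted p = 6.52e-05, edgeR). The remaining transcript could not be assigned to a part of the gene, because the table holds 1 value per gene.

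In all, 286 of the 14601 tested genes passed the threshold (1.96%), of which 138 rose (0.945%) and 148 fell (1.01%). On simulated counts this fit made more false calls than the threshold nominally allows, so single calls near it carry less weight than their adjusted p states. Among the genes past the threshold the rises were the smaller changes. The median log2 fold change was 0.45 among the genes that rose and -0.80 among those that fell, and of the changes of at least 2-fold 7 were rises and 60 were falls. Genes that rose were also the more abundant ones, with a median wild-type level of 39.4 RPKM against 8.40 RPKM for those that fell and 10.1 RPKM for all tested genes. Every one of the 286 had knockout and wild-type ranges that did not overlap, as did 27.7% of all tested genes.

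**Figure D1:**
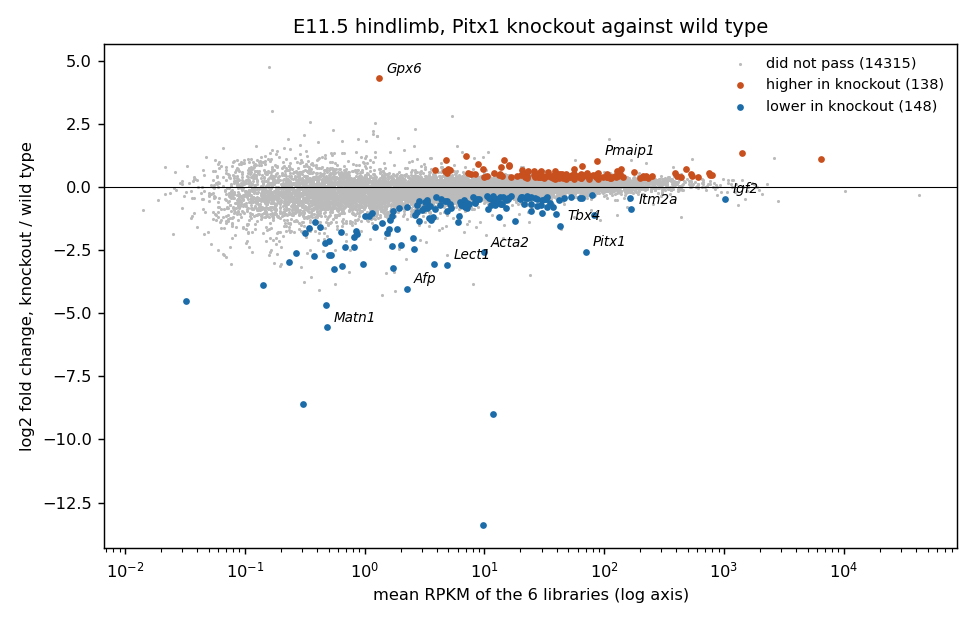
Log2 fold change of knockout over wild type (vertical axis) against the mean RPKM of the 6 libraries (horizontal log axis) for each tested gene at E11.5, 1 point per gene. The 138 genes that rose form a shallow band at higher levels, while the 148 that fell reach further from 0.

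The number of genes past the threshold rested on single libraries. It was 9 without wild-type replicate 1 and 14 without knockout replicate 3, 75 without wild-type replicate 2 and 135 without knockout replicate 2, and it rose to 643 without wild-type replicate 3 and 599 without knockout replicate 1. Leaving out either of the last pair removes a library that lay near the middle of the first component. The calls of 7 genes stood in all 6 of these fits, among them Pitx1, Tbx4, Pmaip1, Itm2a, Afp and E130114P18Rik. A further 5 stood in 5 of the 6, namely Gpx6, Mip, Pgm5, Svep1 and Il1rn, the last pair being chosen after their values were seen.

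Of the hindlimb factors, Tbx4 fell with Pitx1. Its level was 69.2, 58.4 and 63.02 RPKM in the wild type and 20.8, 21.99 and 23.2 RPKM in the knockout, with little spread in either genotype and no overlap. The log2 fold change was -1.53 ± 0.09 (SE, adjusted p = 6.32e-05, edgeR), a fall of 2.89-fold. None of the other 15 tested hindlimb and limb initiation genes passed, and the list's median log2 fold change was -0.08 against -0.01 over all tested genes. Among them Isl1, a LIM-homeodomain gene of the early hindlimb field, was at 7.09, 6.36 and 11.4 RPKM in the wild type and 3.195, 12.55 and 6.38 RPKM in the knockout, and the ranges overlapped. Fgf10, the mesenchymal signal for outgrowth, was at 7.17, 7.15 and 7.06 RPKM and 8.87, 8.82 and 11.7 RPKM, higher in each knockout library without passing (adjusted p = 0.0635, edgeR). Hoxc10 and Hoxc11, Hox genes of the hindlimb, had log2 fold changes of 0.10 and 0.10 (adjusted p = 0.733 and 0.818, edgeR). No forelimb factor passed among 8 tested. Tbx5, at low levels, had a log2 fold change of -1.67 without passing (adjusted p = 0.109, edgeR).

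Several genes of the proximal limb varied more within genotypes than between them. Meis2, a homeobox gene of the proximal limb, was at 17.6, 11.6 and 29.97 RPKM in the wild type and 16.4, 39.4 and 31.6 RPKM in the knockout. Irx3, an Iroquois gene of the anterior and proximal bud, was at 10.3, 4.21 and 16.1 RPKM and 7.23, 19.6 and 14.7 RPKM. For both genes, wild-type replicate 2 was the lowest of its genotype and replicate 3 the highest, and knockout replicate 1 was the lowest of its genotype and replicate 2 the highest. Meis1 and Isl1 gave that order too. So did the summed RPKM of red blood cell markers and of mitochondrial ribosomal protein, proteasome and oxidative phosphorylation genes. The order was therefore not particular to proximal limb genes. How much proximal tissue each library held was not tested.

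**Figure D2:**
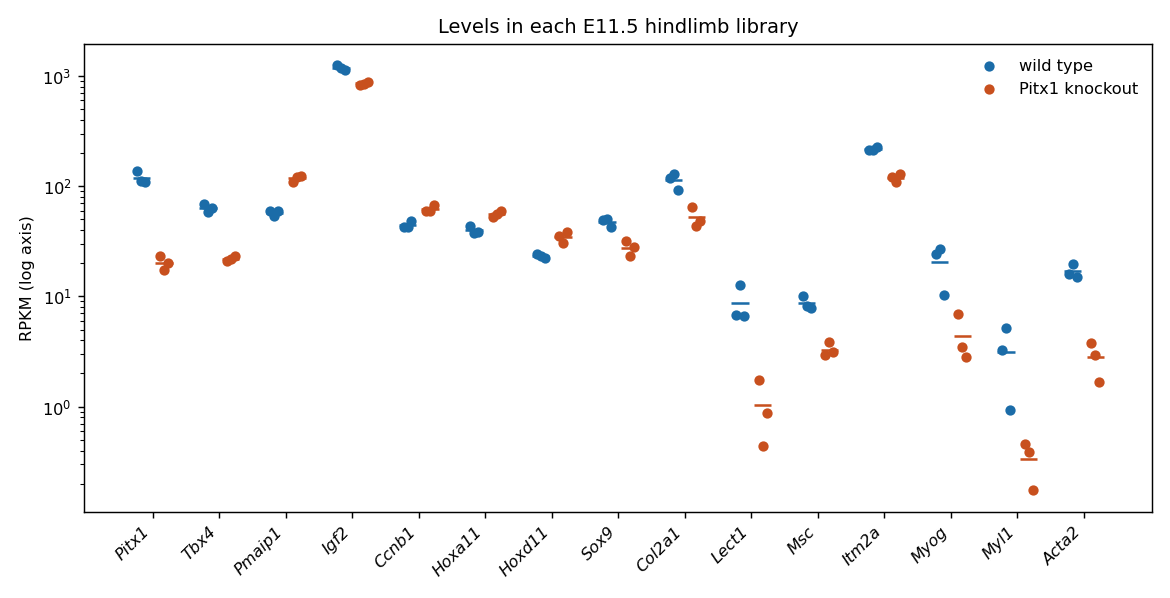
RPKM (log axis) of 15 genes in each E11.5 library, with 3 wild-type points (blue), 3 knockout points (orange) and the mean of each genotype as a bar. Pitx1, Tbx4, Sox9, Msc and Itm2a separate cleanly, whereas for Myog and Myl1 wild-type replicate 3 lies nearest the knockout.

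The posterior HoxA and HoxD genes, which pattern the middle and distal segments of the limb, mostly had positive fold changes. Of 11 tested members 2 rose, none fell, and 10 were positive, with a median of 0.27 on the log2 scale, whereas 47.9% of all tested genes were positive. Their mean log2 CPM (counts scaled to library size), centred per gene over the 6 libraries, overlapped between genotypes. It was -0.065, -0.114 and -0.189 in the wild type and 0.246, -0.143 and 0.265 in the knockout. Their summed RPKM did not overlap, at 510.6 to 574.3 against 588.8 to 721.6. Hoxa11, a gene of the lower leg segment, was at 43.2, 37.2 and 38.6 RPKM in the wild type and 52.6, 55.8 and 60.03 RPKM in the knockout, which did not overlap. It rose by 0.50 ± 0.08 on the log2 scale (SE, adjusted p = 0.024, edgeR). Hoxd11, its partner in that segment, went from 24.4, 23.3 and 22.4 RPKM to 35.4, 30.4 and 38.1 RPKM (0.57 ± 0.09, adjusted p = 0.0218, edgeR). Hoxd13 and Hoxa13, the genes of the foot plate, had overlapping ranges and log2 fold changes of 0.27 and 0.20. The count of 2 was 0 without wild-type replicate 1, wild-type replicate 2 or knockout replicate 3, and 4 without knockout replicate 2. All 8 tested HoxB genes had positive fold changes (median 0.39) at low levels and none passed. Hoxb2 came nearest to the threshold, at 1.89, 1.401 and 1.66 RPKM and 2.78, 3.904 and 3.38 RPKM (adjusted p = 0.0528, edgeR).

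The limb margin lists held small counts of signalling genes past the threshold, to be read beside 1.96% of all tested genes. In the list of hedgehog and posterior limb genes, 2 of 22 fell and none rose, with Hand1, a bHLH factor, at 0.919, 0.419 and 1.31 RPKM in the wild type and 0.219, 0.0941 and 0.08801 RPKM in the knockout. Shh, the posterior signal, ranged from 0.477 to 3.84 RPKM in the wild type and from 0.803 to 3.98 RPKM in the knockout. Its receptor Ptch1 and its target Gli1 had log2 fold changes of -0.02 and -0.08 (adjusted p = 0.916 and 0.653, edgeR). None of 22 apical ectodermal ridge genes passed. Fgf8, the ridge signal, was at 12.3, 7.42 and 12.7 RPKM and 12.2, 14.9 and 16.8 RPKM (adjusted p = 0.252, edgeR). In the BMP list 2 of 35 rose, the ligand Bmp7 (20.2, 17.6 and 18.1 RPKM to 25.1, 26.4 and 24.8 RPKM) and the target Id2 (0.41 ± 0.09, adjusted p = 0.0487, edgeR). Grem1, the BMP antagonist that keeps the ridge active, was at 16.4, 11.1 and 17.2 RPKM and 19.9, 27.3 and 30.4 RPKM, higher in every knockout library without passing (adjusted p = 0.0856, edgeR). Of 54 Wnt ligands, receptors and inhibitors, Wnt7a, the dorsal ectodermal ligand, and the receptor Fzd3 rose, while Fzd8, the co-receptor Lrp5 and the transcription factor Tcf7l2 fell.

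Among transcription factors of the limb mesenchyme, 1 of 47 rose and 4 fell, beside 0.945% and 1.01% of all tested genes. Hand1, already counted with the hedgehog and posterior limb genes, is among the 4. Lhx2, a LIM-homeodomain gene of the distal mesenchyme, rose from 35.9, 29.5 and 29.9 RPKM to 45.3, 40.8 and 50.3 RPKM (0.52 ± 0.10 on the log2 scale, adjusted p = 0.0376, edgeR). Tbx18 fell from 44.1, 45.5 and 40.6 RPKM to 30.2, 23.1 and 30.1 RPKM (-0.64 ± 0.10, adjusted p = 0.0224, edgeR). Plagl1, an imprinted zinc-finger gene tied to growth, fell from 37.5, 49.4 and 34.8 RPKM to 21.5, 16.1 and 21.2 RPKM (-1.05 ± 0.16, adjusted p = 0.025, edgeR), and Foxc1 fell by 0.59 on the log2 scale. Prrx1, Twist1 and Msx1, general mesenchymal genes, missed the threshold at 0.29, 0.21 and 0.08 on the log2 scale. The 4 falls were 0 without wild-type replicate 1 or knockout replicate 3.

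Of 27 tested regulators of cartilage formation 6 fell, Sox9 among them, and none rose. Of the 27, 25 lay below 0, the median log2 fold change being -0.61. Over all tested genes 1.01% fell and 52.1% lay below 0. Sox9, the master regulator of cartilage condensation, was at 49.1, 50.7 and 42.95 RPKM in the wild type and 31.6, 23.01 and 28.2 RPKM in the knockout, with no overlap (-0.79 ± 0.12, adjusted p = 0.0198, edgeR). The SOX family member Sox8 fell from 3.87, 3.93 and 4.05 RPKM to 1.93, 2.08 and 2.36 RPKM (-0.89 ± 0.14, adjusted p = 0.022, edgeR). Sox9's partners Sox5 and Sox6, which work with it on cartilage genes, did not pass (log2 fold changes of -0.28 and -1.01). Wwp2, a ubiquitin ligase gene that hosts a cartilage microRNA, went from 54.9, 65.6 and 40.6 RPKM to 27.9, 21.7 and 26.9 RPKM. The MADS-box genes Mef2c and Mef2d, which serve cartilage and muscle alike and stand in both lists, fell by 0.87 and 0.62. Cytl1, a cytokine-like gene of chondrocyte precursors, fell from 1.301 to 0.331 RPKM on average. Bulk RNA cannot tell fewer cells of a type from less RNA per cell, here and in the groups that follow.

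Cartilage matrix genes lay lower with a wide spread among libraries. Of 34 tested members 3 fell, none rose and 29 were negative, with a median of -0.40. Over all tested genes 1.01% fell and 52.1% were negative. Col2a1, the fibrillar collagen of cartilage, was at 118, 128 and 92.8 RPKM in the wild type and 64.5, 43.5 and 48.4 RPKM in the knockout, and its fall of 2.17-fold passed (adjusted p = 0.0317, edgeR). Lect1, which encodes chondromodulin, went from 6.79, 12.7 and 6.65 RPKM to 1.76, 0.4402 and 0.883 RPKM (-3.07 ± 0.53, adjusted p = 0.0455, edgeR). Matn1, a matrilin of early cartilage, was at 0.735, 1.76 and 0.346 RPKM and 0.0516, 0 and 0 RPKM, so that it was near 0 in every knockout library. Matn4, a matrilin chosen after its values were seen, was at 13.03, 22.5 and 9.48 RPKM and 1.96, 0.352 and 0.867 RPKM, a gap that missed the threshold (adjusted p = 0.0736, edgeR). Acan, the aggrecan gene, was at 0.451, 1.82 and 0.0735 RPKM and 0.108, 0.008896 and 0.0149 RPKM, where wild-type replicate 3 fell inside the knockout range. Hapln1, the link protein gene, was higher on average without passing (0.33, adjusted p = 0.496, edgeR). The 6 regulators and the 3 matrix genes each came to 0 without wild-type replicate 1, wild-type replicate 2 or knockout replicate 3, and to 8 and 5 without wild-type replicate 3. With DESeq2, which called 8.99% of all tested genes, 9 regulators and 13 matrix genes passed.

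Up to 2 genes fell in each list of joint, bone and connective tissue genes, where 1.01% of all tested genes fell and 52.1% were negative. None of 25 joint genes passed. Gdf5, the growth factor of joint interzones, was at 9.99, 14.9 and 7.25 RPKM in the wild type and 6.55, 3.21 and 2.87 RPKM in the knockout, with no overlap and adjusted p = 0.146 (edgeR). Of 23 osteogenesis genes 2 fell, Mef2c and the matrix gene Sparc (71.8 to 53.1 RPKM). The bone regulators Runx2 and Sp7 did not pass (adjusted p = 0.0781 and 0.221, edgeR), at 2.09 and 1.01 RPKM in the wild type. Of 32 collagens outside cartilage 2 fell, Col3a1 (186, 206 and 179.7 RPKM to 141, 148 and 130.4 RPKM) and Col25a1, a transmembrane collagen (14.4, 17.7 and 13.4 RPKM to 10.1, 8.65 and 9.01 RPKM), and 26 were negative with a median of -0.23. Among 33 genes of tendon and muscle connective tissue Col3a1 and Tcf7l2 fell, and Scx, the tendon factor, did not pass (-0.45, adjusted p = 0.0707, edgeR).

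Genes of cell guidance and matrix passed in small numbers, to be read beside 1.96% of all tested genes, of which 52.1% were negative. Of 62 semaphorin, plexin, ephrin and Eph genes 2 fell and 50 were negative (median -0.21). Sema6a, a transmembrane semaphorin, went from 10.9, 11.2 and 8.48 RPKM to 7.09, 6.42 and 6.203 RPKM, and Plxnd1, a vascular guidance receptor, from 17.3, 15.7 and 15.7 RPKM to 12.2, 12.2 and 12.6 RPKM. Of 66 other matrix and proteoglycan genes the syndecan gene Sdc2 rose (21.5, 25.02 and 24.2 RPKM to 39.3, 33.9 and 35.5 RPKM) while its relative Sdc3 fell (39.7, 40.5 and 35.5 RPKM to 28.1, 25.9 and 28.3 RPKM), so that members of 1 family went opposite ways. Loxl3, a collagen cross-linking enzyme gene, went from 6.37 to 3.96 RPKM on average and passed as lower, and 52 of the 66 were negative. None of 23 Notch or 25 TGF beta and activin genes passed, with medians of -0.21 and -0.18. All 5 changes named in these lines were lost without wild-type replicate 1 or knockout replicate 3.

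The lowest medians of all 50 lists were those of muscle, in late myogenic, neuromuscular junction and sarcomere genes. Of 44 tested myogenic regulators and progenitor genes 10 fell, none rose and 38 were negative, with a median of -0.52. Over all tested genes 1.01% fell and 52.1% were negative. Msc, which encodes musculin, a bHLH factor of early muscle, was at 9.996, 8.12 and 7.84 RPKM in the wild type and 2.93, 3.85 and 3.102 RPKM in the knockout (-1.39 ± 0.17, adjusted p = 0.00775, edgeR). Both genotypes were tight and clearly apart. Itm2a, a membrane protein gene of chondrogenic and myogenic cells, went from 215, 211 and 227 RPKM to 119.8, 108 and 129 RPKM (-0.87 ± 0.08, adjusted p = 0.00154, edgeR). Pax7, a satellite cell lineage factor, was low in the wild type at 0.486, 0.4297 and 0.329 RPKM and lower in the knockout at 0.0873, 0.0469 and 0.0209 RPKM. Fgfr4, the fibroblast growth factor receptor of myoblasts, fell by 1.64 on the log2 scale. The adhesion gene Cdh15 and the RNA-binding gene Rbm24 fell by 1.22 and 1.33.

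Genes of the migrating precursors had smaller fold changes than Myod1 and Myog. Pax3, which marks incoming precursors, was at 2.34, 1.54 and 2.96 RPKM and 1.05, 1.96 and 2.62 RPKM with overlap (adjusted p = 0.585, edgeR). Lbx1 and Met, needed for that migration, had log2 fold changes of -0.75 and -0.33 (adjusted p = 0.124 and 0.0856, edgeR). Myf5 and Myod1, the determination factors, had -0.81 and -1.58 (adjusted p = 0.127 and 0.0608, edgeR). Myog, the differentiation factor, was at 24.02, 26.8 and 10.2 RPKM in the wild type and 6.95, 3.45 and 2.82 RPKM in the knockout. The genotypes did not overlap, but wild-type replicate 3 was the lowest of its group and the difference did not pass (adjusted p = 0.106, edgeR). The difference between precursor and differentiation genes was not tested.

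In the list of fusion and late myogenic genes 5 of 43 fell and 41 were negative (median -0.90). In that of sarcomere and contraction genes 6 of 50 fell and 43 were negative (median -1.16). Neither list held a gene that rose. Over all tested genes 1.01% fell and 52.1% were negative. Smyd1, a methyltransferase gene needed to build sarcomeres, was at 1.73, 2.499 and 0.951 RPKM in the wild type and 0.303, 0.163 and 0.157 RPKM in the knockout (-3.04 ± 0.42, adjusted p = 0.0153, edgeR). Tnni1, the slow troponin I, was at 5.64, 4.98 and 2.56 RPKM and 0.893, 0.958 and 0.589 RPKM (-2.44 ± 0.36, adjusted p = 0.0188, edgeR). Acta2, smooth muscle actin, which early skeletal muscle also makes, was at 15.98, 19.9 and 15.1 RPKM and 3.81, 2.92 and 1.67 RPKM, and fell by 6.01-fold (adjusted p = 0.0208, edgeR). Actc1, the cardiac actin of embryonic muscle, was at 48.6, 70.9 and 14.1 RPKM and 7.31, 3.19 and 1.19 RPKM, and the wide spread within genotypes left it short of the threshold (adjusted p = 0.128, edgeR). Acta1 and Myh3, an actin and a myosin gene of skeletal muscle, followed the same pattern (adjusted p = 0.137 and 0.2, edgeR). Of 15 neuromuscular junction genes Rapsn, the receptor-clustering protein gene, fell (1.15 to 0.2198 RPKM). Rapsn is also among the 5 late myogenic falls, and Cdh15 is counted both there and among the myogenic regulators.

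**Figure D3:**
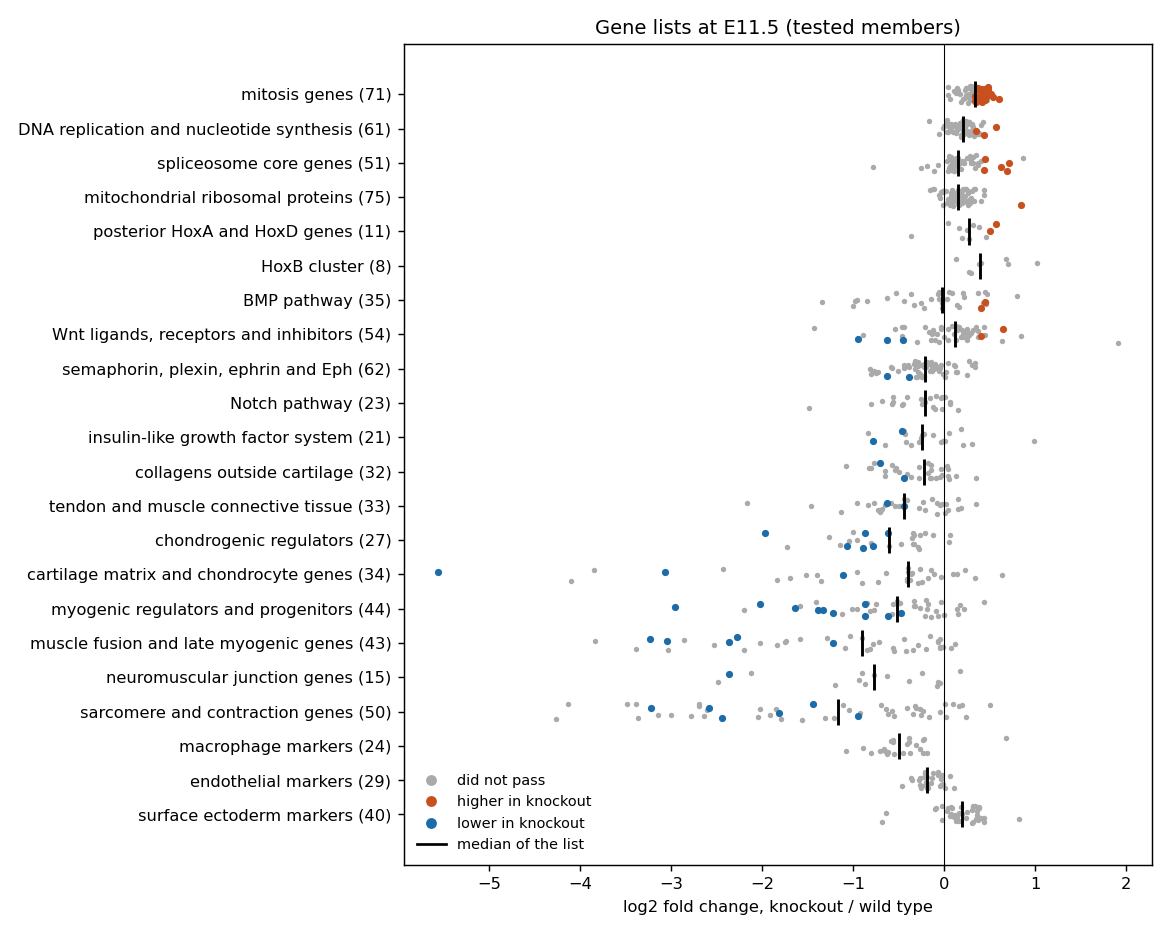
Log2 fold change (horizontal axis) of each tested member of 22 gene lists at E11.5, with genes that rose in orange, genes that fell in blue, genes that did not pass in grey and the list median as a black bar; the number of tested members follows each name. Mitosis genes sit together to the right of 0, and the muscle and cartilage lists extend far to the left.

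The muscle and cartilage lists varied within genotypes as well as between them. The mean log2 CPM (counts scaled to library size) of the sarcomere genes, centred per gene over the 6 libraries, was 0.74, 1.14 and 0.11 in wild-type replicates 1, 2 and 3 and -0.35, -0.48 and -1.15 in knockout replicates 1, 2 and 3. For cartilage matrix it was 0.36, 0.86 and 0.17 against -0.07, -0.76 and -0.57. Wild-type replicate 3 was the lowest wild type in both, and knockout replicate 1 the highest knockout. Without wild-type replicate 1 the counts of 10, 5 and 6 genes fell to 1, 0 and 0, and without knockout replicate 3 to 1, 0 and 1. Without wild-type replicate 3 they were 13, 16 and 16. Without wild-type replicate 2 they were 2, 1 and 2, and without knockout replicate 2 they were 7, 1 and 3.

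**Figure D4:**
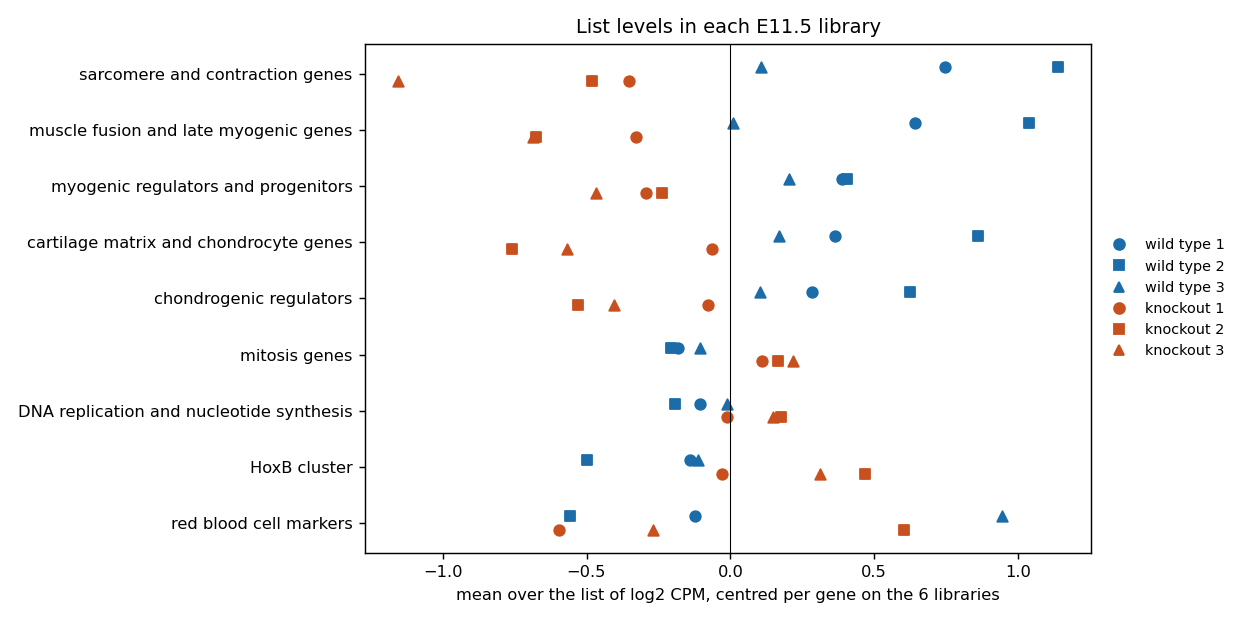
Mean over each list of log2 CPM, centred per gene on the 6 libraries (horizontal axis), for 9 gene lists and each library; marker shapes give the replicate number. Genotypes do not overlap for the muscle, cartilage and mitosis lists, with wild-type replicate 3 and knockout replicate 1 closest to each other in the cartilage lists, while red blood cell markers mix the genotypes.

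Of 71 tested genes of mitosis 24 rose and none fell. All 71 had positive fold changes, and 59 had ranges that did not overlap, against 0.945% and 13.7% of all tested genes for a rise and for a higher range without overlap. The median was 0.34 on the log2 scale, and 47.9% of all tested genes were positive. Ccnb1, cyclin B1, was at 42.8, 42.7 and 48.7 RPKM in the wild type and 59.6, 59.5 and 67.01 RPKM in the knockout (0.47 ± 0.08, adjusted p = 0.0262, edgeR). Ccnb2, its sister cyclin, went from 105, 95.4 and 99.8 RPKM to 123, 124 and 134 RPKM, a rise of 1.27-fold. Ndc80, a kinetochore subunit gene, went from 30.97, 35.1 and 37.8 RPKM to 47.7, 51.96 and 50.7 RPKM (0.54 ± 0.09, adjusted p = 0.022, edgeR), and the centromere motor gene Cenpe and the spindle gene Nusap1 rose by 0.41 and 0.45. Kif11, the spindle motor, and Top2a, the mitotic topoisomerase, both chosen after their values were seen, rose by 0.43 and 0.37. Mki67, the proliferation antigen, fell short of the threshold at 63.6, 66.6 and 62.9 RPKM and 85.3, 73.02 and 85.4 RPKM (adjusted p = 0.0608, edgeR). None of the 24 passed without wild-type replicate 1 or knockout replicate 3, 3 passed without wild-type replicate 2, 10 without knockout replicate 2 and 33 without wild-type replicate 3 or without knockout replicate 1, and DESeq2 called 55.

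Promoters of the mitosis genes are shown because all 71 tested members had fold changes of 1 sign and the group carries a known pair of motifs. The CCAAT box (CCAAT) is bound by NF-Y, and the cell cycle genes homology region (TTTGAA) by complexes that time late cell cycle genes. Both were searched on both strands, so that ATTGG and TTCAAA on the gene's strand are matches too, and the motifs can share no more than a terminal base. RefSeq windows on build GRCm38.p6 from 250 bases before to 50 bases after the start were matched for 59 of the 71 genes, 66 windows in all. CCAAT was in 77.3% of these windows, TTTGAA in 66.7% and both in 56.1%. For the 24 mitosis genes that rose, with 20 matched, CCAAT was in 18 of 24 windows, TTTGAA in 12 and both in 10 (41.7%). In all 32851 windows of the table the 3 shares were 37.4%, 17.9% and 7.0%. For genes of DNA replication and nucleotide synthesis, with 52 of 61 matched, they were 56.2%, 14.1% and 9.4%. TAATCC, the bicoid-type sequence that PITX proteins recognise, was in 0 of the 66 mitosis windows and in 7.1% of all windows. For the cartilage and muscle lists and for all genes that rose or fell, fewer than 80% had a window, and their shares are not given. A match describes letters only. The 250 bases before the start of 3 of these genes follow 5′ to 3′ on the gene's strand, with the matches in capitals. They lie at chr9:70421555-70421804 (minus strand) for Ccnb2, chr19:37376132-37376381 (plus strand) for Kif11 and chr11:99024190-99024439 (minus strand) for Top2a.
Ccnb2: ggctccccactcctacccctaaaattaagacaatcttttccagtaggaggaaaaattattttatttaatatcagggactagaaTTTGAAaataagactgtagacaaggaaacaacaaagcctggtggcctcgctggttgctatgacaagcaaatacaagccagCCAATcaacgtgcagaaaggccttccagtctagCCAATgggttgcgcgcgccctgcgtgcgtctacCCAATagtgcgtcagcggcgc
Kif11: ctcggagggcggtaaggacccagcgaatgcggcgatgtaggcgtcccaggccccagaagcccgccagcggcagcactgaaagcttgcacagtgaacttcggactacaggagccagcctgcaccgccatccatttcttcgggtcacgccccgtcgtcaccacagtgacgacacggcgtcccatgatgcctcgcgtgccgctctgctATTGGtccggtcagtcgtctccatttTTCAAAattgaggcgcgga
Top2a: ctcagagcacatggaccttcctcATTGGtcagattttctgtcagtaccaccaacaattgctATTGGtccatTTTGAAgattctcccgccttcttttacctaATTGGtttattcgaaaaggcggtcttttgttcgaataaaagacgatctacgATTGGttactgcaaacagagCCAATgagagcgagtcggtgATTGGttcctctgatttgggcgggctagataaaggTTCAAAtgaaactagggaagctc
In these bases Ccnb2 holds 3 CCAAT matches, at -87, -54 and -21 from the start, and 1 TTTGAA match at -167. A further TTTGAA match of Ccnb2 lies past the start, at 5, inside the searched window but not printed. Kif11 holds 1 of each near the start, at -45 and -19. Top2a holds 6 CCAAT matches and 2 TTTGAA matches, the nearer of the latter at -23.

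Genes of DNA synthesis held fewer calls than those of mitosis. In their centred mean log2 CPM the genotypes met, with knockout replicate 1 at -0.013 and wild-type replicate 3 at -0.012. Of 61 tested members 3 rose, none fell and 57 were positive, with a median of 0.20. Over all tested genes 0.945% rose and 47.9% were positive. Dut, which clears dUTP, went from 55.03, 57.2 and 62.5 RPKM to 78.5, 89.7 and 91.4 RPKM (0.57 ± 0.08, adjusted p = 0.0165, edgeR), and Prim1 and Pola1, of the primase complex, rose by 0.43 and 0.35. Pcna, the sliding clamp, and Mcm2, of the replicative helicase, did not pass (log2 fold changes of 0.17 and 0.06). The 3 rises were 0 without wild-type replicate 1 or knockout replicate 3, 10 without knockout replicate 1 and 9 without wild-type replicate 3. The cyclins of the earlier cycle phases, Ccnd1 and Ccnd2, had 0.12 and 0.07 and did not pass. Of 51 spliceosome genes 5 rose and 46 were positive (median 0.15), beside 0.945% and 47.9% of all tested genes. Snrpf went from 44.9, 35.9 and 45.9 RPKM to 68.2, 73.8 and 65.2 RPKM, and Snrpb2 from 85.8, 112 and 107 RPKM to 147, 169 and 153 RPKM. The Lsm6, Snrpd1 and Hnrnpc genes rose as well, and none of the 5 passed without wild-type replicate 1 or knockout replicate 3. Several such genes have processed copies in the genome, and the assignment of shared fragments is not stated.

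Most genes of the housekeeping machinery had small positive fold changes, but the libraries of the genotypes overlapped. Over all tested genes 0.945% rose and 47.9% were positive. Of 75 mitochondrial ribosomal protein genes 64 were positive and 1 rose, Mrps10 (11.3, 8.9 and 14 RPKM to 17.2, 23.6 and 21.01 RPKM), and of 41 proteasome genes 38 were positive and none passed. The medians of these lists were 0.15 and 0.14. Knockout replicate 1 lay below wild-type replicate 3 in the centred mean log2 CPM of both, at -0.022 against -0.011 for the mitochondrial ribosome and -0.051 against 0.016 for the proteasome. Of 74 oxidative phosphorylation genes 56 were positive, with a median of 0.10, knockout replicate 1 (-0.109) lay below wild-type replicates 1 and 3 (0.051 and 0.089), and the 1 that fell was Ndufs5, which is uncertain as described below with other copied genes.

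Of the 286 genes past the threshold 192 stood in none of the 50 lists. Those described here were chosen after their values were seen, apart from Tmsb10 and Basp1, which the stage difference took in. Among the rises were further genes of the dividing cell. The centromere genes Cenpp and Cenpq went from 22.5, 22.4 and 24.9 RPKM to 32.1, 34.3 and 35.4 RPKM and from 30.6, 33.6 and 38.8 RPKM to 45.4, 51.6 and 48.7 RPKM, and Gmnn, the replication licensing inhibitor geminin, from 82.6, 80.7 and 95.98 RPKM to 110.1, 133 and 126 RPKM. Stmn1, a microtubule destabiliser, and Hmgn1, a nucleosome-binding protein, rose by 0.42 and 0.40 on the log2 scale. Tmsb10, an actin-sequestering thymosin gene, rose from 388, 333 and 379 RPKM to 553, 637 and 606 RPKM (0.71 ± 0.08, adjusted p = 0.00775, edgeR), and Basp1, a membrane cytoskeleton gene, by 0.44. Among the falls, Svep1, a large adhesion protein gene, went from 1.66, 1.43 and 1.41 RPKM to 0.666, 0.676 and 0.689 RPKM with narrow ranges in both genotypes (-1.15 ± 0.13, adjusted p = 0.00509, edgeR). Il1rn, the interleukin 1 receptor antagonist, went from 0.781, 1.13 and 0.836 RPKM to 0.0701, 0.0289 and 0 RPKM.

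In the insulin-like growth factor system a ligand and a binding protein fell. Igf2, the main fetal growth factor, was at 1248, 1173 and 1121 RPKM in the wild type and 828, 851 and 884 RPKM in the knockout (-0.46 ± 0.08, adjusted p = 0.0238, edgeR). Its binding protein gene Igfbp3 went from 44.1, 45.02 and 36.6 RPKM to 22.3, 25.6 and 25.1 RPKM (-0.78 ± 0.10, adjusted p = 0.00812, edgeR). These were the 2 of 21 tested list members that passed, beside 1.96% of all tested genes, and the list's median was -0.25. Igf1 did not pass and lay on the other side (0.30, adjusted p = 0.27, edgeR). H19, the imprinted neighbour of Igf2, was at 2181, 2416 and 2179 RPKM and 1763, 1984 and 1858 RPKM (adjusted p = 0.102, edgeR). The 2 falls were 0 without wild-type replicate 1 or knockout replicate 3. The cell cycle inhibitor gene Cdkn1c, also imprinted, was at 335 and 275 RPKM, short of the threshold (adjusted p = 0.0652, edgeR), while Gas1, a growth arrest and hedgehog co-receptor gene, fell by 0.30 on the log2 scale.

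Pmaip1, which encodes the pro-apoptotic protein NOXA, had the smallest p of all rises and was the 1 rise that passed in each fit without 1 library. It was at 59.1, 53.7 and 59.8 RPKM in the wild type and 109, 122 and 124 RPKM in the knockout, a rise of 2.06-fold (1.04 ± 0.08 on the log2 scale, adjusted p = 0.000327, edgeR). It was the 1 member of 39 p53 target and apoptosis genes that passed, beside 1.96% of all tested genes, and the list's median was 0.04. Other p53 targets missed the threshold, at 0.11 for Bbc3, 0.17 for Mdm2 and -0.45 for Cdkn1a on the log2 scale (adjusted p = 0.731, 0.228 and 0.0664, edgeR). Trp53 itself was at 102 and 91.8 RPKM (adjusted p = 0.351, edgeR).

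Some of the largest changes lay in genes of low level or uncertain counting. Gpx6, a glutathione peroxidase gene, was at 0.0223, 0.168 and 0.181 RPKM in the wild type and 2.28, 2.08 and 3.15 RPKM in the knockout (4.31 ± 0.52, adjusted p = 0.00775, edgeR). Afp, alpha-fetoprotein, a gene of yolk sac and fetal liver, was at 3.46, 4.22 and 5.02 RPKM and 0.131, 0.356 and 0.294 RPKM (-4.02 ± 0.35, adjusted p = 0.000982, edgeR). Apob, of the same tissues, fell too, at under 0.1 RPKM in every library. Afp and Apob were the 2 of 13 tested yolk sac and liver genes that passed, beside 1.96% of all tested genes. E130114P18Rik, an unnamed transcript, went from 5.13, 7.03 and 8.12 RPKM to 1.15, 0.606 and 0.706 RPKM. Rprm, a cell cycle arrest gene chosen after its values were seen, was not of low level. It went from 25.8, 30.9 and 20.7 RPKM to 11.9, 9.64 and 9.18 RPKM. Reads of near-identical copies may be split between them, so the values are uncertain for Eno1 and Ndufs5, which were at or near 0 in the knockout, for Rps15a-ps6 and Pgam1 among the rises, and for the short entries Mir703 and Mir546.

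Among markers of other cell types, none passed in the macrophage, endothelial, surface ectoderm, neuron or red blood cell list. Nor did any Schwann cell, neural crest or melanocyte marker among 14 tested. Of 20 tested gut, kidney, gonad and tail markers 1 fell. Over all tested genes 1.01% fell, 52.1% were negative and 47.9% were positive. The 26 macrophage genes summed to 93.7 to 108 RPKM in the wild type and 67.1 to 73.4 RPKM in the knockout, 23 of 24 tested members were negative, and none of the list was at 0 in all libraries. The 40 surface ectoderm genes summed to 336 to 376 RPKM and 399 to 432 RPKM, and 34 were positive. Both sums were without overlap between genotypes, beside the muscle, cartilage and mitosis changes, and their part in those changes was not tested. Endothelial genes summed to 270.2 to 315 RPKM and 255 to 278 RPKM, with 26 of 29 negative and overlap. Of 31 neuron markers 12 were tested, 6 were at 0 in all 6 libraries and none passed. Of 17 smooth muscle and pericyte genes only Acta2 fell, and 16 were negative.

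The same genotypes were compared a day later, at E12.5. Of the 286 genes past the threshold at E11.5, 284 were tested at E12.5, and 257 of those (90.5%) had the same sign there, against 64.1% of the 14157 genes tested at both stages. The median log2 fold change at E12.5 was 0.15 for the genes that had risen and -0.28 for those that had fallen. The fold change at E12.5 was the smaller one for 136 of 138 risen genes and 133 of 146 fallen genes, and a choice by threshold at E11.5 favours that result. Pitx1 and Pmaip1 were at -2.92 ± 0.40 and 0.95 ± 0.33 (SE) at E12.5, close to their E11.5 values. Tbx4 was at -0.83 there, and Col2a1, Sox9 and Acta2 were at -0.61, -0.08 and -0.28. Gene lists, which kept their members whatever the E11.5 call, went both ways. The lists themselves were chosen with earlier results of these data known, so that choice can bear on them too. The median log2 fold change lay nearer 0 at E12.5 for sarcomere genes (-0.60 against -1.16 at E11.5), myogenic regulators (-0.11 against -0.52), chondrogenic regulators (-0.25 against -0.61) and mitosis genes (0.15 against 0.34). It lay further below 0 at E12.5 for cartilage matrix genes (-0.64 against -0.40), tendon and muscle connective tissue (-0.55 against -0.45), osteogenesis genes (-0.39 against -0.21), collagens outside cartilage (-0.37 against -0.23), joint genes (-0.34 against -0.26) and yolk sac and liver genes (-2.66 against -0.51). These differences between the medians were not tested.

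**Figure D5:**
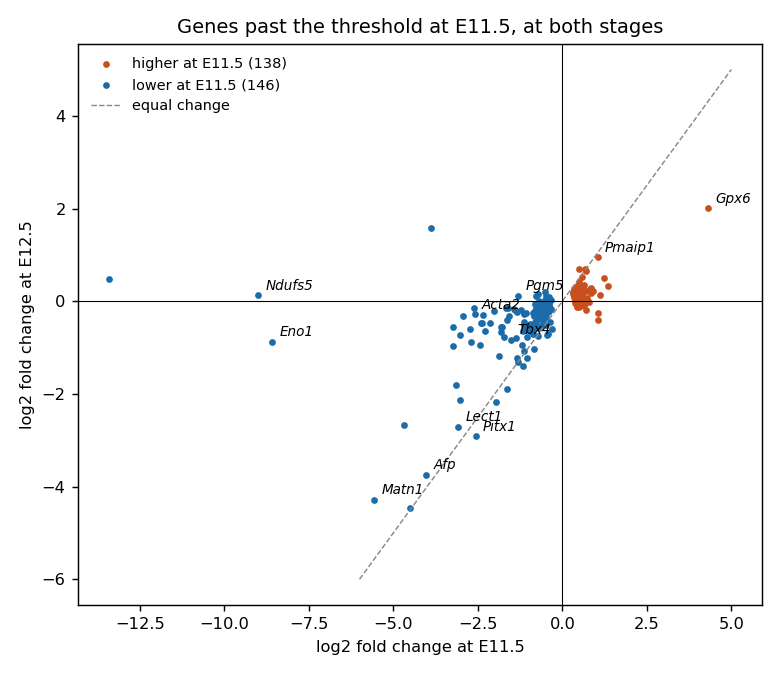
Log2 fold change of knockout over wild type at E11.5 (horizontal axis) and at E12.5 (vertical axis) for the 284 genes past the threshold at E11.5 and tested at both stages, 1 point per gene; the dashed line marks equal change. Most points share a sign at both stages and lie nearer 0 at E12.5, which the choice of genes at E11.5 favours, while Pitx1, Afp, Matn1, Lect1 and Pmaip1 lie near the line.

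The difference of the knockout effect between the stages was tested in 1 fit of the 12 libraries. Pgm5, a phosphoglucomutase-like gene of muscle adhesion sites, was the 1 gene of 15324 past the threshold (0.00653%), and 1585 genes (10.3%) had an unadjusted p under 0.05. It was at 5.54, 5.55 and 4.19 RPKM in the wild type and 1.77, 2.35 and 2.03 RPKM in the knockout at E11.5 (-1.31 ± 0.14, adjusted p = 0.00477, edgeR). At E12.5 it was at 10.2 ± 0.741 and 11.1 ± 1.18 RPKM (SD, n = 3 each), and the difference of the effects was 1.42 ± 0.18 on the log2 scale (SE, adjusted p = 0.0357, edgeR). For Tbx4 the difference was 0.69 ± 0.11 with adjusted p = 0.108 (edgeR), and for Twist1, chosen by the same rule, it was -0.51 ± 0.09 with adjusted p = 0.205 (edgeR). An unadjusted p under 0.05 was found for 20 of 44 myogenic regulators, 25 of 71 mitosis genes and 6 of 34 cartilage matrix genes, and none of these passed after adjustment over all genes.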

How the data were processed

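The submitters' processing notes name FastQC, TopHat2, Cuffdiff and mouse build mm9. Per the file headers, the deposited values are raw fragments, which are estimated counts per gene and library, a scaled fragment signal that was not used, and RPKM, normalized by the authors, which gave the levels. Neither annotation nor strand setting is given in the sources used here. Cuffdiff numbers replicates from 0, and these were taken in order as 1 to 3. Of 23929 genes, 5 flagged by Cuffdiff and listed at 0 at E11.5 (6 over both stages) and 2 ambiguous date names were left out. Fragments were rounded to whole numbers (1.48% were not whole).

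Genotypes were compared with edgeR 4.0.16 in R 4.3.3, with TMM scaling, filterByExpr, robust dispersions, the quasi-likelihood F test and Benjamini-Hochberg adjustment. The stage difference was an interaction contrast over 12 libraries. The fit was tested on simulated counts, where at E11.5 it made more false calls than the nominal 5%. The chi-square per degree of freedom between replicates was at least 26.9, so each library counted as 1 replicate. The members and the 50 gene lists were chosen with earlier results of these data known. Named genes were a set of 93, the 15 largest rises and falls of at least 1 RPKM without overlap, up to 8 members per list and direction past the threshold, up to 6 others by level, and 5 per direction by the stage difference. Alternatives used DESeq2 1.42.0 and limma 3.58.1, among others. Promoters came from RefSeq GRCm38.p6 and were matched by symbol or unique synonym. Results for a few genes are not reported here.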

Additional observations from a re-analysis of the deposited data

Results flagged for a closer look

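The knockout effect on Pgm5 differed between the stages by the test of the difference itself, with a change of 1.42 on the log2 scale from E11.5 to E12.5. It was the only gene past the threshold there. Pgm5 passed in 4 of the 12 fits that left out 1 library. No gene passed without wild-type replicate 1 or 2 at E11.5 and without knockout replicate 2 or 3 at E12.5.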

How the results depend on the processing

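The count of 286 genes at E11.5 (138 higher, 148 lower) was matched within 1.5-fold with RLE size factors and a mean of 5 RPKM. It was 1027 (563 higher, 464 lower) with the 12 libraries of both stages in 1 fit, 1312 (661 and 651) with DESeq2, 133 (60 and 73) with limma on log2(RPKM + 0.1), 118 (50 and 68) with limma on log2(RPKM + 1) and 525 (278 and 247) with no filter on low counts. Without the robust step 88 genes were higher. Leaving out 1 library each gave 9 to 643 genes, 2 to 337 higher and 7 to 316 lower. Of the 286 genes, DESeq2 called 283 and limma on log2(RPKM + 1) 104. The labels state no pairing of the samples. Same-numbered libraries had correlations of 0.043, -0.233 and 0.048 of their deviations from the genotype mean. Differently numbered pairs ranged from -0.360 to 0.310. With 3 libraries per genotype these values cannot show whether libraries shared a litter or a batch. With the replicate block 100 genes passed, 24 higher and 76 lower. For the difference between stages, with 1 gene past the threshold, DESeq2 called 120 (65 higher, 55 lower) and the fit with no filter 2, both higher, the replicate block gave 1, and leaving out 1 library gave 0 to 5, with 0 to 5 higher and 0 to 1 lower. No called value of a gene fixed for naming reversed its sign in any of these fits.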

Other observations

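All 6 libraries held Y-linked RNA and next to no Xist. Ddx3y was at 19.5, 23.7 and 23.4 RPKM in the wild type and 22.02, 17.1 and 22.2 RPKM in the knockout, and Xist was at 0.0576 RPKM or less in each library. They were named with their values known.

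In a pair of genes chosen after their values were seen, knockout replicate 2 stood apart from the other knockout libraries. Zfp429, a zinc-finger gene, was at 2.97, 3.51 and 3.29 RPKM in the wild type and 0.110, 1.45 and 0.221 RPKM in the knockout (adjusted p = 0.207, edgeR). Gpr137b-ps, a pseudogene, was at 4.65, 3.02 and 5.01 RPKM in the wild type and 0.740, 2.94 and 0.754 RPKM in the knockout (adjusted p = 0.237, edgeR).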
